A study of Rattus norvegicus with 6 samples.

Results

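Voltage-gated and potassium ion channel genes were read in primary cultures labelled as rat cardiac fibroblasts by 128 probe sets of 81 genes, out of 8740 probe sets on the array. The members were all probe sets whose platform annotation names exactly 1 gene with a symbol that begins with Kcn, Cacn, Scn or Hcn followed by a letter or digit. Of the 128, 82 carried a Kcn symbol (54 genes), 26 a Cacn symbol (14 genes) and 20 an Scn symbol (13 genes). No probe set with an Hcn symbol was found, so the pacemaker channels are not analysed here. The Scn symbols include 3 genes that begin with Scnn and encode epithelial sodium channel subunits, which are not gated by voltage. The cells came from ventricles of Sprague-Dawley rats aged 1 to 2 days (the strain is written SD for PTX replicate 3) and were grown on 6 well plates. As controls 3 cultures received water, 3 further cultures received pertussis toxin (PTX) for 24 h, and RNA of each culture was read on its own 1-colour Affymetrix array. No genetic change is named in the labels. PTX, a toxin of Bordetella, modifies the alpha subunits of Gi and Go proteins so that receptors can no longer activate them, and the labels give no dose. The labels do not say whether the 3 cultures of a group came from separate isolations, so the spread behind every p-value is that of these 6 cultures and could be technical.

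Ion channels of these families set the resting potential of a cell and shape its action potential. Pore-forming alpha subunits of voltage-gated potassium, calcium and sodium channels open on depolarisation, whereas inward rectifier (Kir) and two-pore potassium channels carry the resting current. Auxiliary subunits control how many channels reach the membrane and how they gate. Kcnj3 and Kcnj5 encode Kir subunits that together form the acetylcholine-gated potassium channel of atrial and nodal cells, which opens when beta-gamma subunits released from Gi bind to it; PTX blocks that step. Ventricular fibroblasts are not excitable, but they carry potassium currents, and cardiomyocytes in a culture would add transcripts of the cardiac action potential channels.

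Signals of most channel probe sets were low. The signal is a GCOS intensity in arbitrary units, and a value over 100 was taken as above the low range. A mean over the 6 arrays above 100 was reached by 14 of 128 channel probe sets (10.9%), which read 12 genes, against 3786 of all 8740 probe sets (43.3%). A signal over 100 on each of the 6 arrays was reached by 12 of the 14, the exceptions being those of Kcnj5 and Cacna1a. No array read more than 100 for 109 members, and 7 members exceeded 100 on some arrays only. The median of the members' mean signals was 20, against 64.7 over all probe sets. Signals of different probe sets depend on their probes, so a higher signal does not show a more abundant transcript, and no order of the genes is drawn from them.

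**Figure D1:**
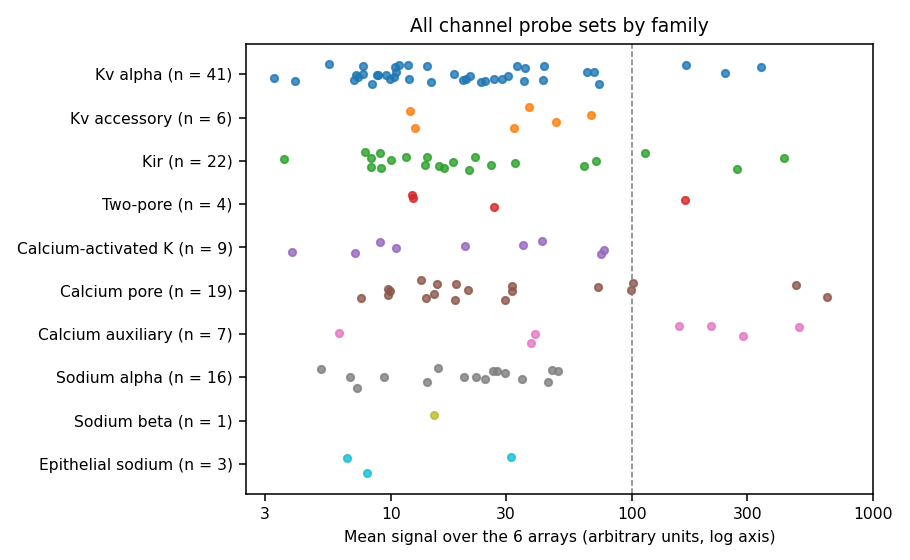
Mean signal over the 6 arrays of each of the 128 channel probe sets (1 point each, log axis, arbitrary units), by family; the vertical scatter within a family has no meaning and the dashed line marks 100. All 20 sodium channel probe sets lie below 50, and 4 of 7 calcium auxiliary probe sets lie above 100.

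The families differed in how many probe sets passed 100. Among calcium channel auxiliary subunits these were 4 of 7 probe sets, and among calcium channel pores 3 of 19. Among Kir channels 3 of 22 passed, among voltage-gated potassium channel alpha subunits 3 of 41, and among two-pore channels 1 of 4. None passed among the 6 probe sets of potassium channel accessory subunits, the 9 of calcium-activated potassium channels, the 16 of sodium channel alpha subunits, the 1 of a sodium channel beta subunit or the 3 of epithelial sodium channel subunits. Just inside the threshold lay Cacna1a (mean 100.3) and Kcnj5 (112.6), and just outside it Cacna1h (99.3), Kcnn1 (76.2) and Kcnmb1 (74.1).

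Control replicate 1 was the array least like the rest. The Pearson correlation of its log2 values with theirs was 0.952 to 0.960, against 0.978 to 0.985 among the other 5. Of the 14 members with a mean over 100, 7 had their highest signal on that array, so changes without it are given below for the members over 100. All 9 fibroblast markers were over 100 on all 6 arrays, and so were 13 of 14 cardiomyocyte markers. The exception was Ryr2, the calcium release channel of cardiomyocytes, with a mean of 32.2. The median of the mean signals was 21820 for the cardiomyocyte markers and 7392 for the fibroblast markers, against 64.7 over all probe sets. The summed signal of the 14 cardiomyocyte markers was 301914 to 378510 in the controls and 262444 to 295673 with PTX. That sum is weighted to the markers with the highest signals. Of the 13 tested, 10 had a negative log2 change and 3 a positive one, between -0.39 for Myh7 and 1.02 for Actn2. At an unadjusted p under 0.05 was 1 of the 13 (limma, 7.69%, lower), against 12.6% of all tested probe sets. Past an adjusted p of 0.05 were 0 of the 13 (limma). For the fibroblast markers the summed signal was 68330 to 82607 in the controls and 73399 to 76973 with PTX. Single fibroblast markers had log2 changes in both directions, such as -0.97 for Thy1, 1.10 for Lum and 1.07 for Postn. At an unadjusted p under 0.05 were 4 higher and 1 lower of the 9 (limma), and 0 passed an adjusted one. The shares of all tested probe sets at such an unadjusted p were 7.97% higher and 4.61% lower. Without control replicate 1 Thy1 (limma adjusted p = 0.00791) and Lum (0.00662) passed, in a setting where 115 probe sets of the whole array did. Of the 4 tested macrophage and leukocyte markers Fcgr2b passed too in that setting (log2 change 0.88, limma adjusted p = 0.00791), where 1 of the 4 had a negative change. With all 6 arrays 2 of the 4 had a positive change and 2 a negative one, C1qb (-0.39) and C1qc (-0.24), and 0 passed (limma). Cd74, under the filter, read 27.8, 23.8 and 14.4 in the controls and 6.1, 3.5 and 2.9 with PTX. The same marker check found 4 of 5 smooth muscle, 4 of 6 macrophage and leukocyte, 1 of 10 Schwann cell and neuronal and 0 of 3 endothelial genes over 100 on all 6 arrays, with Pecam1 and Vwf in the low range. Their summed signals in the controls and with PTX were 22708 to 24929 and 22931 to 23855 for smooth muscle, 981 to 1295 and 1211 to 1319 for macrophages, 3539 to 3996 and 3326 to 3391 for Schwann cells and neurons, and 118 to 163 and 91.4 to 149.5 for endothelium. Pmp22 alone made up most of the Schwann cell and neuronal sum, with 3345.1 to 3680.1 in the controls and 3085.2 to 3140.9 with PTX. The log2 change of Pmp22 was -0.18 (limma adjusted p = 0.489), and the other 9 genes of that list exceeded 100 on no array. The part of these cell types in the channel signals was not tested. In such bulk samples, fewer cells of a type and less RNA per cell cannot be told apart.

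No channel probe set passed the test between PTX and control. Of the 128 members, 35 (28 genes) lay above the filter on low signals and were tested with limma on log2(signal + 16), and 0 had an adjusted p under 0.05, where 0.0763% of all 5244 tested probe sets did (4 higher, 0 lower). The smallest adjusted p among the members was 0.350. At an unadjusted p under 0.05 there were 3 members (8.57%), 1 higher and 2 lower, against 12.6% of all tested probe sets (7.97% higher and 4.61% lower). That count was 4 without control replicate 1, 1 without control replicate 2, 5 without control replicate 3 and 0 without PTX replicate 2 or 3, where 15.4%, 11.6%, 18.5%, 7.23% and 7.27% of all tested probe sets had such a p. With no filter it was 11 of 128 (8.59%), against 9.89% of all. Without control replicate 1, 115 probe sets of the whole array passed the adjusted threshold, and again 0 members. PTX and control arrays stood fully apart for 2 of the 35 (5.71%), 1 higher and 1 lower, against 22.6% of all tested probe sets (12.0% higher and 10.6% lower). Of the 35 log2 changes 16 were positive and 19 negative, between -0.74 and 0.83, with a median of -0.03 against -0.02 over all tested probe sets. Without control replicate 1 the median was 0.00. Of the members 116 have names that do not begin with rc_, and 28 of these were tested. At an unadjusted p under 0.05 were 10.7% of the 28 (limma), against 9.53% of all 2960 tested probe sets so named. Groups stood fully apart for 7.14% against 19.5%, and the median log2 change was -0.04 against -0.10.

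The precision differed with the signal. Within a group the median coefficient of variation of the 14 members with a mean over 100 was 17.4% in the controls and 9.36% with PTX, close to the 17.6% and 8.75% of all probe sets with a mean over 100. For the 93 members under the filter it was 54.0% and 48.9%. The 95% limma interval of the change stayed within 2-fold in either direction for 13 of the 14 members over 100, the exception being Cacna1a, and for 23 of the 35 tested members. The widest bound was 1.79-fold for those 13 and 3.07-fold over all 35. With 3 arrays a group, changes of any size inside an interval remain possible.

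**Figure D2:**
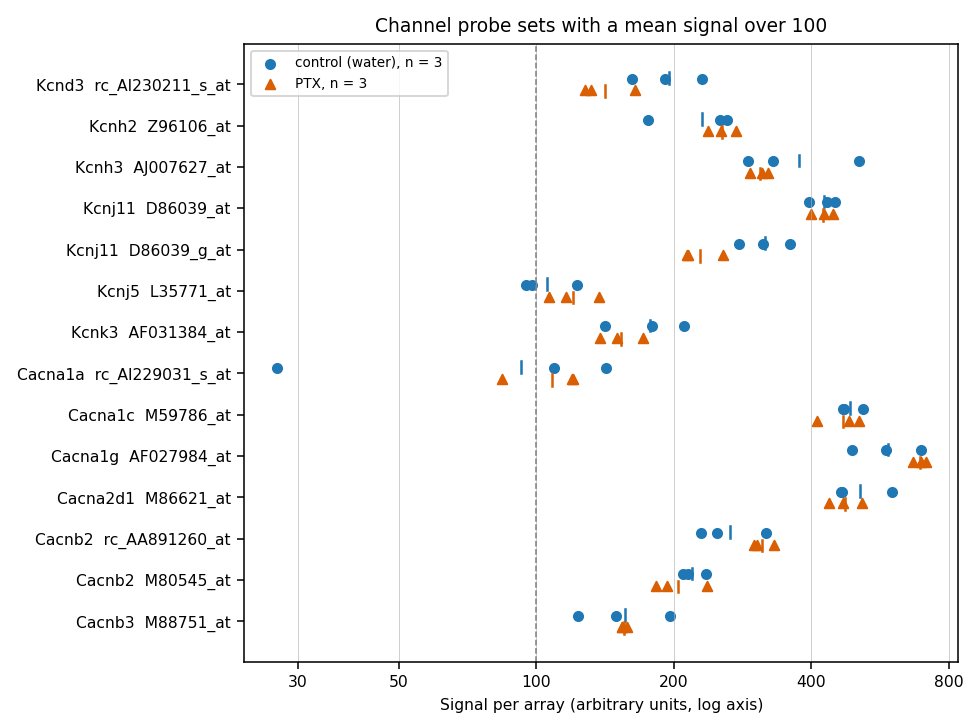
Signal on each array (arbitrary units, log axis) of the 14 channel probe sets with a mean over 100, with 3 control arrays as circles, 3 PTX arrays as triangles and short lines at the group means; the dashed line marks 100. The groups overlap in every row but that of Kcnj11 D86039_g_at, where the PTX arrays (214.0 to 255.7) lie below the control arrays (277.2 to 359.4).

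Among calcium channel pores, Cacna1g and Cacna1c had signals well over 100 on all arrays. Cacna1g, the pore of a low-voltage-activated T-type channel, had 694.8, 490.8 and 582.4 in the control cultures and 668.6, 696.0 and 711.6 with PTX. The groups overlapped, since control replicate 1 read as high as the PTX arrays. The log2 change was 0.24 ± 0.16 (SE; 95% interval -0.12 to 0.60; limma adjusted p = 0.513), or 0.36 without control replicate 1 (limma unadjusted p = 0.0137, adjusted p = 0.187). Cacna1h, the pore of another T-type channel, read 83.6, 68.6 and 106.9 in the controls and 115.0, 122.2 and 99.5 with PTX, with overlapping groups and a log2 change of 0.34 ± 0.20 (limma adjusted p = 0.483), or 0.33 without control replicate 1.

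Cacna1c encodes the pore of the L-type channel, which triggers contraction in cardiomyocytes. One of its probe sets, M59786_at, read 519.6, 470.6 and 470.3 in the controls and 484.2, 509.0 and 412.5 with PTX. These values overlapped almost fully, with a log2 change of -0.06 ± 0.14 (95% interval -0.38 to 0.27; limma adjusted p = 0.864), or -0.01 without control replicate 1. The other Cacna1c probe sets had means of 20.9 and 9.85, under the filter.

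Cacna1a, the pore of the P/Q-type channel of nerve terminals, had the highest log2 change among the tested members. Its probe set AF051526_at read 54.0, 23.3 and 67.4 in the controls and 76.0, 134.5 and 76.4 with PTX. The lowest PTX array lay above the highest control array, with a log2 change of 0.83 ± 0.34 (95% interval 0.04 to 1.62), an unadjusted p of 0.0424 and a limma adjusted p of 0.388. A second Cacna1a probe set, rc_AI229031_s_at, read 109.0, 141.9 and 27.0 in the controls and 119.8, 83.9 and 120.3 with PTX. Its groups overlapped and control replicate 3 was far below the rest; the log2 change was 0.37 ± 0.46 (limma adjusted p = 0.710), or -0.19 without control replicate 3. The remaining Cacna1a probe sets, M99222_s_at and AF051527_s_at, had means of 14 and 9.67, under the filter. The groups overlapped on the former. On the latter the PTX arrays (10.5, 5.7 and 8.1) lay below the control arrays (10.7, 10.7 and 12.3), opposite to AF051526_at. Without control replicate 1 the changes were 0.92 for AF051526_at (adjusted p = 0.244) and 0.57 for rc_AI229031_s_at (limma, adjusted p = 0.572).

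Auxiliary calcium channel subunits were the family with the largest share of probe sets over 100. Cacna2d1, whose product carries the pore to the cell surface and is the receptor of gabapentin, read 602.1, 464.0 and 465.9 in the controls and 515.4, 437.9 and 470.1 with PTX. Control replicate 1 was the highest array, the groups overlapped, and the log2 change was -0.10 ± 0.16 (limma adjusted p = 0.783), or 0.03 without that array. Cacnb3, a cytoplasmic beta subunit, read 196.5, 123.4 and 149.2 in the controls and 153.7, 153.7 and 158.1 with PTX. The 3 PTX values lay inside the range of the controls, and the log2 change was 0.01 ± 0.19 (limma adjusted p = 0.984), or 0.17 without control replicate 1, the highest array.

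Cacnb2, the beta subunit of the cardiac L-type channel, was read over 100 by both of its probe sets. The probe set rc_AA891260_at read 249.1, 229.2 and 317.9 in the controls and 304.2, 330.5 and 299.4 with PTX, with a log2 change of 0.23 ± 0.16 (limma adjusted p = 0.534), or 0.19 without control replicate 1. The probe set M80545_at read 214.8, 209.1 and 234.6 in the controls and 192.7, 236.7 and 183.0 with PTX, with a log2 change of -0.10 ± 0.16 (limma adjusted p = 0.763), or -0.12 once control replicate 1 was left out. The groups overlapped on both, and the probe sets differed in sign. Of the other auxiliary subunits, Cacnb1 (mean 37.9) and Cacng1 (39.7) were tested with log2 changes of -0.14 and 0.01, and Cacnb4 (6.07) was under the filter.

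Kcnj11 encodes the pore of an ATP-sensitive potassium channel, which opens when cellular ATP falls. It was read by a pair of probe sets named after the same sequence. On D86039_at the controls had 432.4, 450.2 and 395.8 and the PTX cultures 445.6, 425.8 and 399.5. The groups overlapped almost fully, with a log2 change of -0.01 ± 0.13 (95% interval -0.31 to 0.30; limma adjusted p = 0.985), or 0.00 without control replicate 1. On D86039_g_at the controls had 359.4, 312.8 and 277.2 and the PTX cultures 255.7, 214.0 and 214.3. All PTX arrays lay below all control arrays there, with a log2 change of -0.44 ± 0.16 (95% interval -0.81 to -0.08). That was the smallest p among the members (unadjusted p = 0.0236, limma adjusted p = 0.350), and it did not pass. Without control replicate 1 the change on D86039_g_at was -0.35 (limma unadjusted p = 0.0384, adjusted p = 0.295).

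The Gi-gated pair was read unevenly. Kcnj5 had 122.8, 94.9 and 97.9 in the controls and 137.3, 106.6 and 116.2 with PTX. The groups overlapped, with a log2 change of 0.17 ± 0.18 (95% interval -0.25 to 0.59; limma adjusted p = 0.684), or 0.27 without control replicate 1. Kcnj3 was in the low range on both of its probe sets and was not tested. U72410_s_at read 45.2, 16.6 and 12.5 in the controls and 20.4, 8.3 and 23.7 with PTX, and U09243_at read 4.4, 3.5 and 5.3 in the controls and 9.3, 20.4 and 4.0 with PTX. Both overlapped between the groups. Such signals carry no detection call here, so they do not show that the transcript was absent. The other subunits of this subfamily, Kcnj6 and Kcnj9, had means of 8.23 and 3.58.

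Among voltage-gated potassium channel alpha subunits, Kcnh2, Kcnh3 and Kcnd3 each had 1 probe set over 100. Kcnh2 encodes the pore of the rapid delayed rectifier that repolarises cardiomyocytes. Its probe set Z96106_at read 252.6, 175.5 and 261.6 in the controls and 237.6, 273.3 and 253.3 with PTX, with overlapping groups and a log2 change of 0.16 ± 0.18 (limma adjusted p = 0.70), or 0.23 without control replicate 1 and -0.01 without control replicate 2, the lowest array. Its other probe set, U75210_s_at, had group means of 83.6 ± 39.5 and 55.8 ± 11.9 (SD, n = 3 each) and a log2 change of -0.40 ± 0.34 (limma adjusted p = 0.601).

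Kcnh3, a relative of Kcnh2 known mainly from brain, read 509.6, 328.9 and 290.9 in the controls and 293.9, 322.0 and 312.2 with PTX on AJ007627_at. Control replicate 1 was far above the other 5 arrays, which lay between 290.9 and 328.9. The log2 change was -0.23 ± 0.21 with all arrays (limma adjusted p = 0.628) and 0.00 without that array. Its other probe set, AF073892_s_at, had means of 55.1 ± 22.3 and 31.1 ± 18.7 (SD, n = 3 each) and a log2 change of -0.61 ± 0.38 (limma adjusted p = 0.494).

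Kcnd3, the pore of a transient outward current of early repolarisation, read 230.8, 162.1 and 191.2 in the controls and 164.0, 131.9 and 127.9 with PTX on rc_AI230211_s_at. PTX replicate 1 overlapped control replicate 2 by a small margin. The log2 change was -0.42 ± 0.18 (95% interval -0.84 to 0.01), with an unadjusted p of 0.0543 and a limma adjusted p of 0.409, or -0.30 without control replicate 1. The other Kcnd3 probe sets had means of 10.8 and 7.65; on the former the PTX arrays (25.2, 9.0 and 10.4) lay above the control arrays (4.6, 7.1 and 8.3), at signals under the filter.

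Kcnk3, a two-pore channel that carries an acid-sensitive leak current, read 210.9, 141.4 and 178.6 in the controls and 171.5, 137.7 and 150.0 with PTX on AF031384_at. The groups overlapped, with a log2 change of -0.18 ± 0.19 (limma adjusted p = 0.669), or -0.05 without control replicate 1. A second Kcnk3 probe set had a mean of 12.2.

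**Figure D3:**
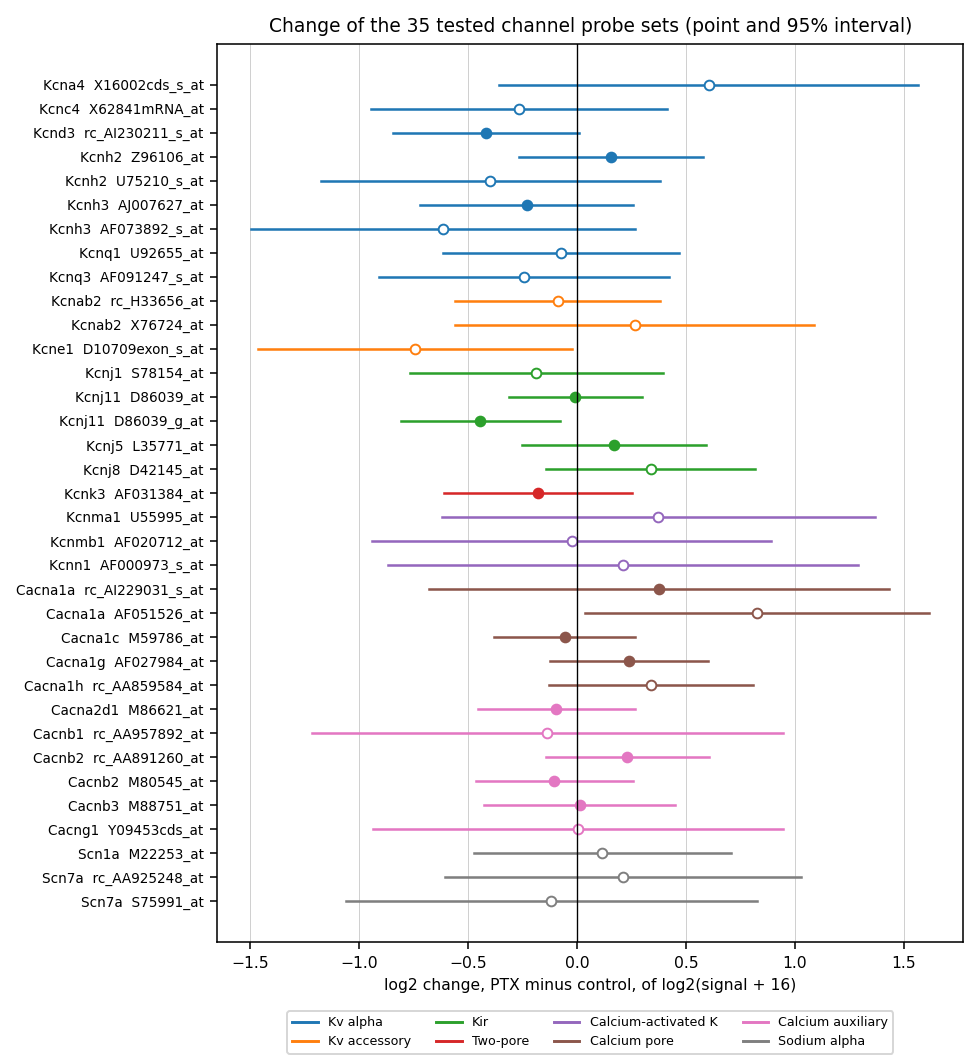
The log2 change (PTX minus control, of log2(signal + 16)) of the 35 tested channel probe sets with its 95% limma interval, coloured by family; filled points have a mean signal over 100. The intervals of 3 probe sets, Kcne1 D10709exon_s_at, Kcnj11 D86039_g_at and Cacna1a AF051526_at, leave out 0, without adjustment for the number of tests.

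Accessory subunits of potassium channels and calcium-activated potassium channels stayed at means below 100. Kcne1, which slows the gating of the Kcnq1 channel, read 53.6, 61.1 and 36.6 in the controls and 37.1, 22.3 and 13.6 with PTX on D10709exon_s_at. PTX replicate 1 lay just above control replicate 3, so the groups overlapped, and the log2 change was the lowest of the tested members at -0.74 ± 0.31 (unadjusted p = 0.0444, limma adjusted p = 0.390). A second Kcne1 probe set, under the filter, had means of 37.2 ± 16.9 and 27.2 ± 7.80 (SD, n = 3 each). Kcnq1 itself, the pore of the slow delayed rectifier, had a mean of 72.8 and a log2 change of -0.07.

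Kcnab2, a cytoplasmic beta subunit, read 68.9, 79.4 and 61.8 in the controls and 76.2, 59.9 and 58.9 with PTX on rc_H33656_at, with a log2 change of -0.09 ± 0.20 (limma adjusted p = 0.852). Kcnmb1, the beta subunit of the large-conductance calcium-activated channel of smooth muscle, read 27.6, 104.8 and 105.7 in the controls and 67.2, 73.9 and 65.3 with PTX on AF020712_at. Control replicate 1 lay far below the other controls, and the log2 change was -0.03 ± 0.40 with it and -0.52 without it (limma unadjusted p = 0.0276, adjusted p = 0.258). Another Kcnmb1 probe set, under the filter, had a mean of 35.3. Kcnn1, a small-conductance calcium-activated channel, read 100.6, 107.9 and 19.0 in the controls and 65.0, 76.8 and 88.1 with PTX. Control replicate 3 was far below the rest, and the log2 change was 0.21 ± 0.47 with it (limma adjusted p = 0.848) and -0.38 without it.

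Sodium channel probe sets were low on all arrays, with means between 5.13 and 49.0. The one with the highest mean read Scn7a, an atypical sodium channel that responds to extracellular sodium. It had 19.8, 76.9 and 43.3 in the controls and 51.5, 47.0 and 55.7 with PTX, with overlapping groups and a log2 change of 0.21 ± 0.35 (limma adjusted p = 0.791), or -0.14 without control replicate 1. A second Scn7a probe set had a log2 change of -0.12, and that of Scn1a, a channel of neurons, 0.12; these were the 3 sodium channel probe sets tested. Scn2b, the only beta subunit read, had a mean of 15.1, and Scnn1g, an epithelial sodium channel subunit, one of 31.5.

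Probe sets of one gene did not all pass 100. Of the 81 genes 33 had more than 1 probe set, up to 5. Of the 12 genes with a mean over 100 on some probe set, 8 had more than 1, and in 6 of these 8 another probe set was below 100: Cacna1a, Cacna1c, Kcnd3, Kcnh2, Kcnh3 and Kcnk3. For 4 of the 6 another probe set was under the filter. For Kcnj11 and Cacnb2 all probe sets passed 100. Different probe sets carry different probes, so these signals are no measure of how much of the gene's RNA each detects. Names ending in _s_at, which mark probes shared by more than 1 sequence, made up 42 of the 128 members and 2 of the 14 over 100. A statement that one of these genes is above or below 100 therefore depends on the probe set.

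**Figure D4:**
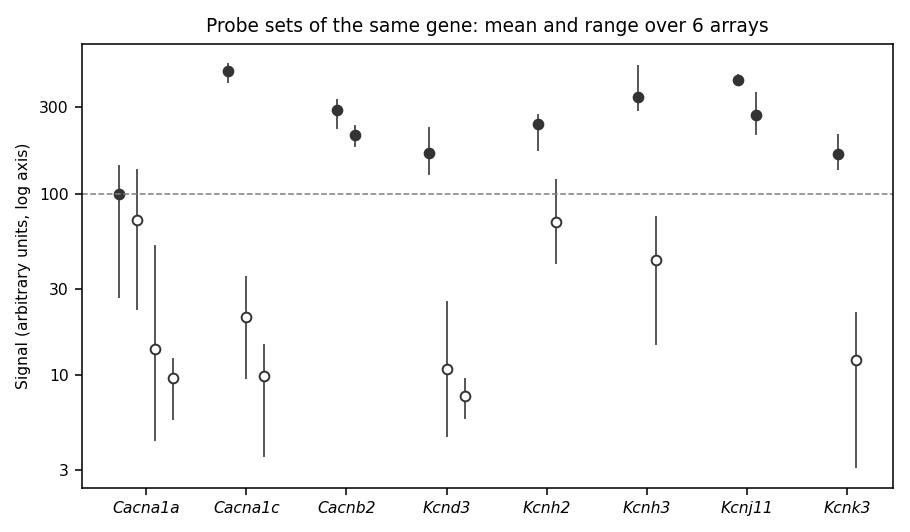
Mean signal over the 6 arrays (points) and range over the arrays (lines), on a log axis in arbitrary units, of every probe set of the 8 genes that have more than 1 probe set and at least 1 mean over 100 (filled points); the dashed line marks 100. In Kcnj11 and Cacnb2 all probe sets lie over 100, and in the other 6 genes at least 1 lies below.

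The 93 members under the filter (72.7%) read 53 genes that had no tested probe set, beside further probe sets of tested genes. For 16 of the 93 (17.2%) the groups did not overlap, 6 higher and 10 lower with PTX, against 11.0% of the 3496 probe sets under the filter (4.23% higher and 6.75% lower). These 16 had means between 4 and 31.6, and were not tested. Scn8a and Cacna1d encode the pores of a neuronal sodium channel and of an L-type calcium channel. Among the 16, only they had 2 probe sets each. Both of Scn8a were higher with PTX: L39018_at read 3.9, 7.1 and 3.8 in the controls and 32.9, 22.1 and 23.8 with PTX, and AF049239_s_at read 13.3, 9.7 and 16.2 and then 23.8, 52.3 and 19.9. The other probe set of Scn8a overlapped, with means of 8.63 and 4.93. With no filter on low signals Scn8a had the smallest adjusted p of the members, 0.253 (limma). Of the 5 Cacna1d probe sets, M57682_at read 27.7, 32.8 and 16.9 in the controls and 0.7, 11.5 and 3.0 with PTX, M99221_s_at read 9.1, 32.0 and 30.4 and then 3.2, 6.9 and 8.4, and the other 3 overlapped. These genes were named after their values were seen. Channel genes that lie next to each other among protein-coding genes of the rat assembly GRCr8 formed 11 pairs of 20 genes, such as Scn3a and Scn2a, Kcna1 and Kcna6, or Kcnj9 and Kcnj10. In 0 of the 11 pairs did both genes have a mean over 100, and in 1, Kcnj5 and Kcnj1 (112.6 and 63.3), did 1 of them.

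Genes that act with these channels gave no call with all 6 arrays. Of 15 genes of the Gi pathway that opens Kcnj3 and Kcnj5 channels, 12 were measured and 11 tested. Of the 11, 0 passed an adjusted p of 0.05 (limma), with a median log2 change of -0.09. At an unadjusted p under 0.05 was 1 of them (limma, 9.09%), against 12.6% of all tested probe sets. The probe sets with the highest means read Gng5, Gnai2 and Gnb2, with log2 changes of -0.02, 0.02 and -0.03; Gnai2 encodes a toxin substrate, and Gng5 and Gnb2 encode a gamma and a beta subunit. The 1 was Gng10, another gamma subunit (log2 change 1.17, limma adjusted p = 0.137), named after its value was seen. Without control replicate 1 it passed, with a log2 change of 0.97 (limma adjusted p = 0.00791), the only gene of the lists in this paragraph to do so. Its probe set, rc_AA799996_at, read 318.3, 415.2 and 561.3 in the controls and 1019.4, 906.9 and 966.6 with PTX. That probe set is among the rc_AA799 and rc_AA800 probe sets that an alternative setting removes, so Gng10 has no value there. Chrm2, the muscarinic receptor that acts on this pathway in the heart, was under the filter with a mean of 37.8. Of 15 pumps, exchangers and gap junction genes 8 were tested, with 0 calls (limma; 0 at an unadjusted p under 0.05) and a median of -0.08. Of 12 other channels 6 were tested, with 0 calls (limma) and a median of -0.05. At an unadjusted p under 0.05 was 1 of the 6 (limma, 16.7%). That 1 was Itpr1, a calcium release channel of internal stores, with 217 ± 53.2 and 306 ± 20 (SD, n = 3 each), a log2 change of 0.49 and a limma adjusted p of 0.366, also named after its value was seen.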

How the data were processed

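Per the labels' protocols, the authors hybridised biotin-labelled cRNA of 6 cultures to 1-colour Affymetrix arrays. GCOS made the signals, per the submitters' processing notes, which name no version or scaling target. The authors deposited linear intensities, 1 per probe set and array, used here without detection calls. The 2% trimmed means were 493 to 495, so no further scaling was applied, and the median signal per array was 63.1 to 68.85. No arrays held identical values. The platform annotation gave the names: 7006 probe sets have 1 symbol, 308 several and 1426 none. All 128 channel symbols were unchanged after an update through RefSeq (GRCr8).

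Probe sets whose mean log2(signal + 16) was below the 40th percentile of all were dropped, and 5244 were tested with limma 3.58.1 in R 4.3.3 (eBayes with an intensity trend, two-sided, Benjamini-Hochberg over all 5244, threshold 0.05). Fold changes on this scale understate those of low signals. Tested on simulated data for this comparison (20 simulations of 5244 probe sets, 200 changed), it recovered 15.4% of 1.5-fold, 61.4% of 2-fold and 95.4% of 4-fold changes, with 5.69% false calls. These rates are not specific to the channel members. The median SE of the log2 change was 0.25 for the tested members, against 0.20 over all tested probe sets.

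Named are the members over 100, Kcnj3 and Kcnj5, the 3 members nearest below 100, tested members with an unadjusted p under 0.05 or groups apart, further probe sets of these genes, and the highest probe set of each family. Other members given were picked with their values in view. Members, lists and tests were chosen with earlier results of these data known. Where a companion or marker gene had several probe sets, that of the highest mean stood for it. Alternatives were other pseudocounts, filters, scalings, variance models, array quality weights, the replicate block, signal thresholds, each array left out in turn, and the removal of the rc_AA799 and rc_AA800 probe sets.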

Additional observations from a re-analysis of the deposited data

How the results depend on the processing

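No channel probe set passed an adjusted p of 0.05 under any of the 18 other settings of the test (limma throughout), and the smallest adjusted p was 0.130, for Cacna1a with array quality weights. Of 23 named and tested members 14 kept their sign in every setting that gave them a value (15 to 18 of the 18) and 9 changed it in at least 1, none of them a called value. The median log2 change of the tested members lay between -0.08 and 0.01. At an unadjusted p under 0.05 there were 3 of 35 members (8.57%, against 12.6% of all tested probe sets), 11 of 128 with no filter on low values (8.59% against 9.89%), 1 of 12 with the 60th percentile filter (8.33% against 14.5%), and 0 to 5 with 1 array left out (0 to 14.7% against 6.88% to 18.5%). Of the probe sets on the whole array, 4 passed the adjusted threshold, 2 with a pseudocount of 1, 7 with one of 64, 2 with quantile normalization, 0 without a trend, 9 with robust variances, 81 with array quality weights, 8 without the rc_AA799 and rc_AA800 probe sets, and 0 to 115 with 1 array left out, namely 115 without control replicate 1, 30 without control replicate 3 and 0 without any 1 PTX array. The cause of these shifts was not tested. With the replicate number as a block 0 passed, and 2 members had an unadjusted p under 0.05; the deviations of same-numbered arrays correlated at -0.11 to -0.01, so the numbers were not taken to pair the samples. The count of members with a mean over 100 was 14, against 24 over 50 and 9 over 200. The absence of detection calls limits what signals in the low range show.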
